A study of Homo sapiens with 6 samples.

Results

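The genes described here are the nuclear-encoded subunits of the mitochondrial respiratory chain and the ATP synthase, with cytochrome c and a few closely related genes. They were chosen by symbol and gene type alone: protein-coding genes whose symbols begin with NDUF followed by A, B, C, S or V and a digit, NDUFAB1, SDHA to SDHD, UQCR, CYC1, CYCS, COX4 to COX8, or ATP5. The rule took 89 of the 30230 genes in the count table. RNA sequencing had measured polyadenylated RNA in 6 libraries of A549, an established human lung adenocarcinoma cell line. The 3 NC libraries came from control cells. These received a scrambled siRNA according to the study's methods and a control plasmid according to the treatment label. The 3 siFSCN1 libraries came from cells in which an siRNA silenced FSCN1, the gene of fascin, a protein that bundles actin filaments. All cells were of the same line and carried no other stated alteration, and a single siRNA of those designed against FSCN1 was used for these libraries, so that no value separates the loss of FSCN1 from other effects of that siRNA.

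The respiratory chain sits in the inner mitochondrial membrane. Complexes I and II pass electrons from NADH and succinate to ubiquinone, complex III passes them on to cytochrome c, and complex IV transfers them to oxygen. Complexes I, III and IV pump protons as they do so, and complex V, the ATP synthase, lets the protons return and makes ATP. Most subunits are encoded in the nucleus and imported, while a small set of core subunits of complexes I, III, IV and V is encoded by mitochondrial DNA, so that each of these complexes draws on both genomes. A549 cells, like many tumor lines, combine this pathway with strong glycolysis.

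FSCN1 itself was lower in the silenced cells. It was listed at 44.98, 47.24 and 45.99 FPKM in the NC libraries and at 4.46, 2.82 and 3.19 FPKM in the siFSCN1 libraries, where FPKM is the authors' level per gene length and depth. The fitted log2 fold change was -3.89 (SE 0.094, adjusted p = 8.1e-16, edgeR quasi-likelihood test), which left 6.75% of the control level. The libraries held 27967301 to 36560919 counts. All 10 epithelial and A549 marker genes were listed at 2.80 FPKM or more in every library, and all 6 markers of blood, endothelial and liver cells at 0.23 FPKM or less. The scaling factors that correct for library composition (TMM) were 0.933 to 0.942 in NC and 1.05 to 1.08 in siFSCN1. No label ties the libraries of a group to separate cultures, although the study calls them biological replicates, and p-values measure the spread between these libraries.

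Most of the respiratory genes were lower after FSCN1 silencing, by a moderate amount. Of the 84 members with enough counts to be tested, 73 were lower and 3 higher at an adjusted p under 0.05, and 8 were not called. Of all 17076 genes tested, 33.2% were called lower and 35.1% higher. The median log2 fold change was -0.37 over the members and 0.031 over all genes. Levels per library are given as CPM, the counts per 1000000 after TMM. In 72 members all 3 siFSCN1 libraries lay below all 3 NC libraries, while in 3 members they all lay above. Over all genes tested these shares were 34.4% and 36.8%. The summed CPM of all 89 members was 16394, 15794 and 16181 in the NC libraries and 12189, 11792 and 11052 in the siFSCN1 libraries, so that the groups did not overlap and the siFSCN1 mean was 72.4% of the NC mean. In bulk RNA, fewer cells of one kind and less RNA per cell cannot be told apart.

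The size of this difference has to be read against abundance, since abundant genes as a class were lower in the silenced cells. Of the 5318 tested genes that averaged at least 5 FPKM, 59.1% were called lower and 23.2% higher, with a median log2 fold change of -0.22. Of the members, 79 reached that level, of which 71 (89.9%) were lower and 1 was higher, with a median of -0.37. Between 1 and 5 FPKM the median was -0.24 over 4 members and 0.050 over all 5788 genes, and between 5 and 20 FPKM it was -0.30 over 18 members and -0.17 over all 3649 genes. Between 20 and 100 FPKM it was -0.34 over 44 members and -0.29 over all 1349 genes, and from 100 FPKM upward it was -0.48 over 17 members and -0.41 over all 320 genes. The share called lower was 83.3% of the members and 53.7% of the genes between 5 and 20 FPKM, and 88.6% and 68.3% between 20 and 100 FPKM. All 17 members in the highest class were lower, against 81.9% of the genes there. Fewer members lay below the median of all genes in their class. These were 13 of 18 between 5 and 20 FPKM, 25 of 44 between 20 and 100 FPKM and 10 of 17 from 100 FPKM upward. Once the trend of fold change with abundance was subtracted, the median of the members was -0.14. That trend was fitted on CPM, which does not allow for gene length, and not on the FPKM classes. In each class from 1 FPKM upward the median of the members lay below that of all genes, by less in the 2 highest classes than in the 2 below them, and a smaller group of members stood well below both, as the plot of fold change against abundance shows. The part of abundance in the members' values was not tested further. Scaling to library totals, without the composition correction, moved the median of all genes to 0.22 and that of the members to -0.18, with 50 members lower and 11 higher. The distance between the medians of the members and of all genes was -0.40 with either scaling.

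**Figure D1:**
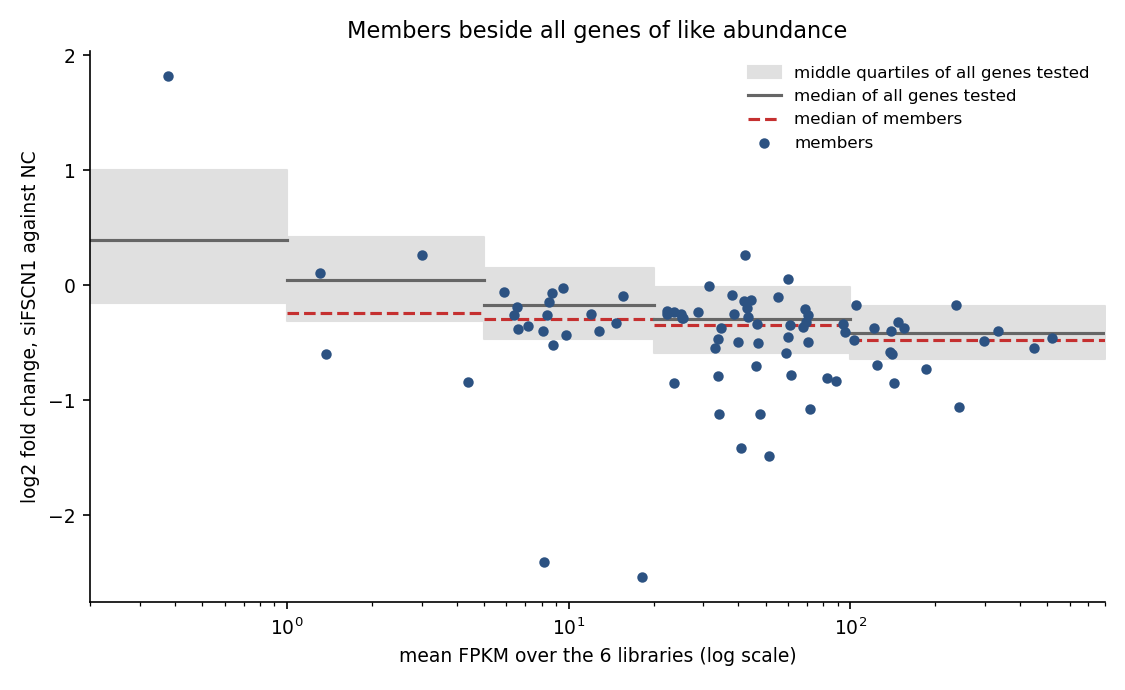
Log2 fold change of each tested member (points) against its mean FPKM over the 6 libraries on a log axis, with the median (solid line) and middle quartiles (grey) of all tested genes in 5 classes of abundance and the median of the members (dashed line). The 44 members between 20 and 100 FPKM had a median of -0.34, beside -0.29 for all genes of that class, while a few members lay below -1.

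All 5 complexes moved in the same direction, and their medians kept their sign under each of the 16 alternative settings. The median log2 fold change was -0.35 over 36 tested subunits of complex I, -0.28 over 4 of complex II, -0.46 over 10 of complex III, -0.41 over 12 of complex IV and -0.31 over 18 of complex V. As summed CPM, the siFSCN1 mean was 76.6% of the NC mean for complex I, 83.0% for complex II, 65.7% for complex III, 71.6% for complex IV and 72.2% for complex V. Complex III had the lowest summed level relative to control and complex II the highest. For complex III the sum was 2266, 2179 and 2224 CPM in NC against 1523, 1466 and 1390.4 CPM in siFSCN1. For complex II it was 472, 475 and 475 CPM against 397, 396 and 386 CPM. The groups did not overlap in either sum. Whether the complexes differed from one another was not tested, because the subunits of a complex are not replicates.

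**Figure D2:**
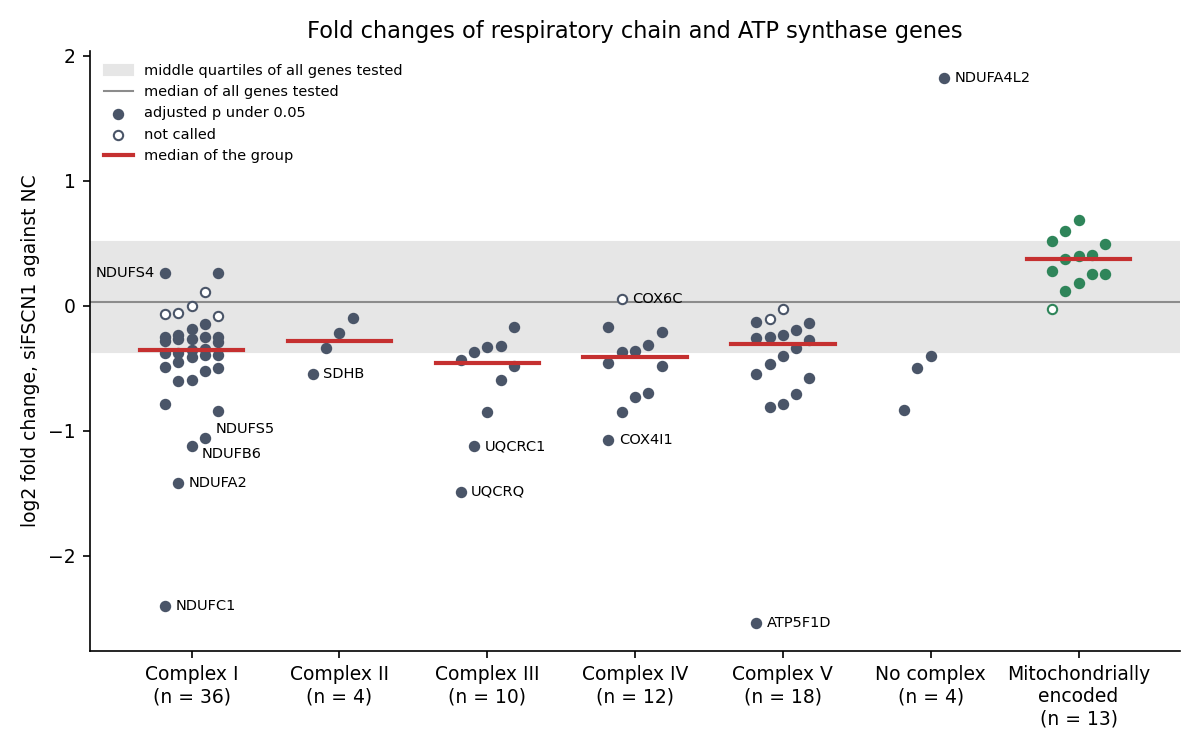
Log2 fold change (siFSCN1 against NC) of each tested member by complex, and of the 13 mitochondrially encoded subunits. Filled points passed an adjusted p of 0.05, open points did not, red lines are group medians, and the grey line and band are the median and middle quartiles of all 17076 genes tested. Nuclear-encoded subunits lay mostly below 0 and mitochondrially encoded ones mostly above it.

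A fall of at least 2-fold was seen in 8 members, against 4.85% of all genes tested and 5.70% of those with at least 5 FPKM. These were ATP5F1D, NDUFC1, UQCRQ, NDUFA2, NDUFB6, UQCRC1, COX4I1 and NDUFS5, so that every complex with proton transport had at least 1. A rise of at least 2-fold was seen in 1 member, NDUFA4L2, against 11.7% of all genes. In each of these 9 genes the NC and siFSCN1 libraries did not overlap.

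**Figure D3:**
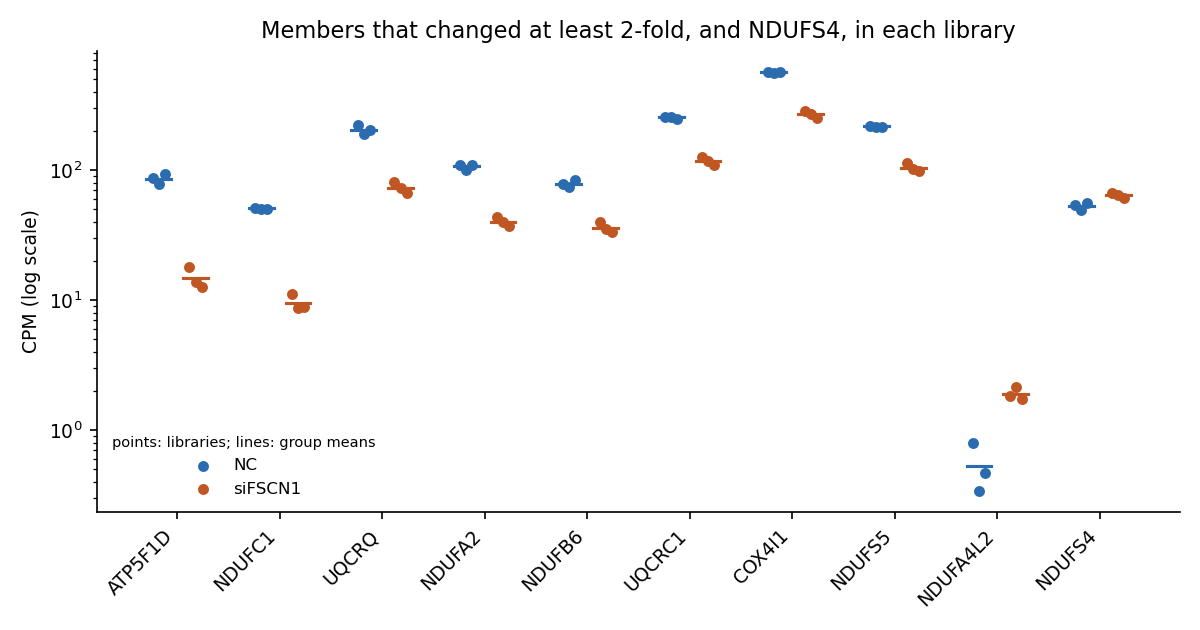
CPM on a log axis of the 9 members that changed at least 2-fold, and of NDUFS4, in each library (points) with group means (lines). ATP5F1D ranged from 78.3 to 92.8 CPM in NC and from 12.6 to 17.9 CPM in siFSCN1, while NDUFA4L2 and NDUFS4 were higher in all 3 siFSCN1 libraries.

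Promoters of respiratory genes are known for sites of NRF1, of the ETS factor GABP and of YY1. RefSeq promoter windows (GRCh38.p14, from 250 bases before to 50 bases after the start) were matched for 70 members and searched on both strands. The NRF1 core GCATGCGC was present in 15 of them (21.4%), against 6.23% of 10676 tested protein-coding genes. The ETS core CCGGAAG was present in 21 of the 70 members, against 21.6% of those genes, the YY1 core AAGATGGCG in 12.9% against 4.54%, and the SP1 core GGGCGGG in 32.9% against 61.1%. Over the tested members with a window, the median log2 fold change was -0.34 with the NRF1 core and -0.37 without it, -0.44 with the ETS core and -0.36 without it, -0.41 with the YY1 core and -0.37 without it, and -0.44 with the SP1 core and -0.32 without it. These medians are a description, and their differences were not tested. The windows below run from 120 bases before to 30 bases from the start and are shown for 2 members that fell more than 2-fold, for NDUFS4, which rose, and for ATP5F1C, the gamma subunit of the central stalk, as one of the members with overlapping copies of the NRF1 core, as in NDUFA8 and SDHD. Capitals mark the core found.
UQCRQ, chr5:132866522-132866671, plus strand, ETS core: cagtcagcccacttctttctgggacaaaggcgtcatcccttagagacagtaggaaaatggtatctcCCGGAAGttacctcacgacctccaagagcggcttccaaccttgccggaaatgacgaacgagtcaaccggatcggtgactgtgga
COX4I1, chr16:85799575-85799724, plus strand, ETS core: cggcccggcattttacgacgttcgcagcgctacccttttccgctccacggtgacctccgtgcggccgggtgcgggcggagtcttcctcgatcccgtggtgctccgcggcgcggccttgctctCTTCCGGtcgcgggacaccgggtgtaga
NDUFS4, chr5:53560519-53560668, plus strand, YY1 core: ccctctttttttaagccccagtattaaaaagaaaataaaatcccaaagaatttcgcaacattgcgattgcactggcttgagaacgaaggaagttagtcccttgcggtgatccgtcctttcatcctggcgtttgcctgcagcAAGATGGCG
ATP5F1C, chr10:7788057-7788206, plus strand, NRF1 core: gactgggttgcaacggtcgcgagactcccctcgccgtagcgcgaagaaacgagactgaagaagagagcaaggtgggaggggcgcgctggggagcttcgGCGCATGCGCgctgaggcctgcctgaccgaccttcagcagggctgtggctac

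UQCRQ and COX4I1, at log2 fold changes of -1.49 and -1.07, thus hold the same ETS letters on opposite strands and at different distances from the start. The ETS core was not shared by the other members that fell at least 2-fold and had a window, NDUFC1, NDUFA2, NDUFB6 and UQCRC1. ATP5F1D and NDUFS5 had no window. ATP5F1C, with the NRF1 core, fell by 0.34, close to the median of the members. A match of this kind describes the letters and does not show binding.

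Complex I, NADH dehydrogenase, is the largest of the complexes. Of its 37 listed genes, 36 were tested, of which 29 were lower, 2 higher and 5 not called. The accessory subunits surround and stabilise the core subunits, which carry the flavin and the iron-sulfur clusters. Of the 29 accessory subunits tested 25 were lower and 2 higher, with a median log2 fold change of -0.39. Of the 7 nuclear core subunits 4 were lower and 3 were not called, with a median of -0.25. The summed CPM of the core subunits was 905, 857 and 888 in NC and 814, 793 and 752 in siFSCN1, or 89.0% of the NC mean, while that of the accessory subunits was 73.1% of it. The difference between core and accessory subunits was not tested.

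NDUFC1, a small accessory subunit of the membrane arm (ENSG00000109390.13, chr4:139266880-139302551, minus strand, GRCh38), showed the deepest fall in complex I. Its CPM was 51.1, 50.6 and 50.6 in NC and 11.1, 8.78 and 8.89 in siFSCN1. The log2 fold change was -2.40 (SE 0.070, adjusted p = 4.7e-15, edgeR), which is 18.9% of the control level. Its annotated exons overlap those of MGARP on the same strand and of NAA15 on the other strand, and the share of its counts that came from these genes was not tested.

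NDUFA2, an accessory subunit of the peripheral arm, was next. It fell from 111, 101 and 109 CPM to 43.4, 39.8 and 36.9 CPM, a log2 fold change of -1.42 (SE 0.058, adjusted p = 3.2e-13). Its exons overlap those of IK and TMCO6 on the opposite strand. NDUFB6, of the membrane arm, fell from 77.7, 74.2 and 84.1 CPM to 39.9, 35.3 and 33.3 CPM (log2 fold change -1.12, SE 0.065, adjusted p = 3.3e-11), and its exons overlap SMIM27 on the opposite strand. NDUFS5, a further accessory subunit of the membrane arm, fell from 219, 216 and 216 CPM to 113, 102 and 97.9 CPM (log2 fold change -1.05, SE 0.047, adjusted p = 8.2e-13). Below the 2-fold line, NDUFA9, which sits where the 2 arms meet, fell by 0.84 and NDUFB3 by 0.78 on the log2 scale.

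NDUFS4 and NDUFA5, both accessory subunits of the peripheral arm, went the other way. NDUFS4, a gene in which mutations cause Leigh syndrome, was measured at 54.0, 49.6 and 56.0 CPM in NC and at 66.5, 64.6 and 60.9 CPM in siFSCN1, with a log2 fold change of 0.27 (SE 0.055, adjusted p = 0.00034). NDUFA5 had 43.4, 44.9 and 45.1 CPM in NC and 51.3, 52.6 and 56.3 CPM in siFSCN1, with a log2 fold change of 0.26 (SE 0.052, adjusted p = 0.00019). For both genes the lowest silenced library was above the highest control library. NDUFV1, the flavin-binding core subunit, was level, with means of 188 ± 9.74 and 188 ± 7.23 CPM (SD, n = 3).

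NDUFA7 and NDUFA11 are reported as uncertain. NDUFA7 had 2 to 8 counts per library and was not tested, and NDUFA11 had 184 to 317 counts and a log2 fold change of 0.11 (adjusted p = 0.47). The exons of each overlap an unnamed gene on the same strand. The same holds for NDUFC2, whose exons are shared with the read-through gene NDUFC2-KCTD14. The read-through gene held 3.98 ± 0.208 times the CPM of NDUFC2 in NC and 3.19 ± 0.108 times in siFSCN1 (SD, n = 3). NDUFC2 was lower by 0.52 and the read-through gene by 0.83 on the log2 scale, so that both shares of these reads were lower.

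Complex II, succinate dehydrogenase, is the only complex with no mitochondrially encoded subunit and is also an enzyme of the TCA cycle. All 4 of its genes were called lower, by amounts that differed between the subunits. SDHB, the iron-sulfur subunit, fell from 109.6, 110.3 and 108 CPM to 78.0, 72.3 and 74.1 CPM (log2 fold change -0.55, SE 0.044, adjusted p = 3.5e-09). SDHC, one of the membrane anchors, fell from 115, 122 and 117 CPM to 93.1, 95.6 and 91.3 CPM (log2 fold change -0.34, adjusted p = 1.4e-06). The groups did not overlap for either gene. SDHD, the other anchor, had 76.5, 78.8 and 83.8 CPM in NC and 69.3, 69.1 and 67.0 CPM in siFSCN1 (log2 fold change -0.22, adjusted p = 0.0005), a difference that was -0.034 and not called with library totals (adjusted p = 0.54). SDHA, the flavoprotein, had 171, 163 and 166 CPM in NC and 157, 159 and 154 CPM in siFSCN1. Its log2 fold change of -0.093 (adjusted p = 0.036) was the smallest of the 4. The SDHA call was lost without NC replicate 1 (adjusted p = 0.10), NC replicate 3 (0.064) or siFSCN1 replicate 2 (0.061), and its sign turned with library totals (0.094), so no direction can be given for SDHA.

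Complex III, the cytochrome bc1 complex, had all 10 of its genes called lower. Its 4 core subunits had a median log2 fold change of -0.67 and its other subunits one of -0.38. UQCRQ, a small subunit (ENSG00000164405.11, chr5:132866630-132868847, plus strand), fell from 221, 191 and 203 CPM to 80.9, 72.4 and 66.3 CPM, a log2 fold change of -1.49 (SE 0.062, adjusted p = 4.3e-13). Its exons overlap those of GDF9 on the opposite strand. UQCRC1, a core subunit related to mitochondrial processing peptidases, fell from 259, 258 and 248 CPM to 126, 117 and 109 CPM, a log2 fold change of -1.12 (SE 0.047, adjusted p = 4.2e-13). No other gene has annotated exons that overlap UQCRC1. CYC1, cytochrome c1, which hands electrons to cytochrome c, fell from 440.4, 436 and 433 CPM to 257, 239.9 and 228 CPM (log2 fold change -0.85, SE 0.042).

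UQCRFS1, the Rieske iron-sulfur protein, and UQCRC2, the second core protein, fell by 0.48 and 0.37 on the log2 scale. The smallest difference in complex III was that of UQCR10, with 135, 122 and 128 CPM in NC and 118, 117 and 107 CPM in siFSCN1 (log2 fold change -0.17, adjusted p = 0.0051), which was 0.016 and not called with library totals. As the sign turned, no direction can be given for UQCR10. Cytochrome c itself, CYCS, the mobile carrier between complexes III and IV that also takes part in apoptosis, was 370.2, 383 and 389 CPM in NC and 269.8, 273 and 265 CPM in siFSCN1. Its log2 fold change was -0.50 (SE 0.036, adjusted p = 7.3e-10), with every silenced library below every control library.

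Complex IV, cytochrome c oxidase, had 15 listed genes, of which 12 were tested and 11 were lower. COX4I1, a nuclear subunit that binds the catalytic core and responds to adenine nucleotides, showed the largest fall. It was measured at 572, 561 and 569 CPM in NC and 288, 269 and 251 CPM in siFSCN1 (log2 fold change -1.07, SE 0.044, adjusted p = 2.9e-13). Its exons overlap those of EMC8 on the opposite strand. COX7A2L, which links complexes III and IV into supercomplexes, fell from 214, 206 and 197 CPM to 115, 113 and 114 CPM (log2 fold change -0.85, SE 0.040). COX5A and COX5B fell by 0.73 and 0.70 on the log2 scale.

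COX6C was the one tested gene of complex IV that was not called, with 187, 185 and 198 CPM in NC and 204, 200.3 and 186 CPM in siFSCN1 (log2 fold change 0.051, adjusted p = 0.30), and the groups overlapped. It was 0.24 and called higher with library totals. NDUFA4, first described in complex I and now counted in complex IV, went from 316, 301 and 298 CPM to 271, 272 and 248 CPM (log2 fold change -0.21, adjusted p = 0.00023). That value was -0.022 and not called with library totals, and 0.073 with the abundance trend removed. As the sign turned, no direction can be given for NDUFA4. The ratio of NDUFA4 to COX4I1 in CPM does not depend on scaling. It was 0.552, 0.537 and 0.524 in NC and 0.944, 1.01 and 0.988 in siFSCN1, so that the 2 groups were far apart. An exact permutation test of 3 against 3 libraries cannot give a two-sided p under 0.1.

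Several subunits of complex IV exist as a common form and a form restricted to certain tissues. COX4I2, the lung and hypoxia form of subunit 4, had 0 counts in all 3 NC libraries and at most 1 in siFSCN1, and COX8C, a testis form, had 0 in NC and at most 2. COX6B2, a testis form of COX6B1, had 0 to 4 counts per library. None of these was tested, and a count of this size allows no comparison. The common partners of these 3, COX4I1, COX6B1 and COX8A, were lower. COX6B1 had a log2 fold change of -0.48 and means of 330.3 ± 7.53 and 265 ± 24.5 FPKM, and COX8A one of -0.46 with 574 ± 28.8 and 469 ± 51.8 FPKM (SD, n = 3). COX7A2, COX7B and COX6A1 are common forms whose tissue forms were not analysed here. COX7A2 had a log2 fold change of -0.32 with 73.1 ± 2.86 and 65.9 ± 3.37 FPKM, and COX7B one of -0.36 with 72.6 ± 3.48 and 63.3 ± 3.43 FPKM. The FPKM values lack the composition correction that these fold changes carry. With library totals, the log2 fold changes were -0.30 for COX6B1, -0.27 for COX8A, -0.13 for COX7A2 and -0.18 for COX7B. COX6A1 had a log2 fold change of -0.17 (adjusted p = 0.0023), which was 0.019 and not called with library totals, so no direction can be given for COX6A1.

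Complex V, the ATP synthase, had 19 listed genes, of which 18 were tested, 16 were lower and 2 were not called. All 5 genes of the F1 head and central stalk were called lower, as were the 4 genes of the peripheral stalk. Of the latter, ATP5PB (-0.14) turned sign under 4 alternatives and reached 0.097, so no direction can be given for it. ATP5F1D, the delta subunit of the central stalk (ENSG00000099624.8, chr19:1241746-1244825, plus strand), had the largest fall of all members. It was measured at 86.9, 78.3 and 92.8 CPM in NC and 17.9, 13.9 and 12.6 CPM in siFSCN1, a log2 fold change of -2.54 (SE 0.092, adjusted p = 6.7e-14) that left 17.2% of the control level. No other annotated gene has exons that overlap it, and no related pseudogene was named in the annotation. The other stalk and head genes moved far less. ATP5F1B, the catalytic beta subunit, fell by 0.55 and ATP5F1A, the alpha subunit, by 0.46 on the log2 scale. The ratio of ATP5F1D to ATP5F1A in CPM, independent of scaling, was 0.165, 0.153 and 0.184 in NC and 0.0476, 0.0373 and 0.0340 in siFSCN1. ATP5F1E, the epsilon subunit that binds beside delta, had 279, 273 and 288 CPM in NC and 277, 258 and 235 CPM in siFSCN1, groups that overlapped, with a log2 fold change of -0.13 (adjusted p = 0.029). Its sign turned with library totals, so no direction can be given for ATP5F1E.

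The rotating c ring is made from a single mature protein encoded by 3 nuclear genes, which differ in the import sequence that is cut away. These genes did not move together. ATP5MC1 went from 249, 235 and 254 CPM to 152, 147 and 129.8 CPM (log2 fold change -0.78, SE 0.051, adjusted p = 1.6e-10). ATP5MC3 went from 503, 485 and 482 CPM to 297, 282 and 261 CPM (log2 fold change -0.81, SE 0.044, adjusted p = 1.5e-11). For both, the groups were well separated. ATP5MC2 had 272, 251 and 276 CPM in NC and 267, 251 and 225 CPM in siFSCN1, with overlapping groups and a log2 fold change of -0.11 (SE 0.053, adjusted p = 0.085). That value was 0.081 with library totals, and it was called lower without NC replicate 2 (-0.16), without siFSCN1 replicate 1 (-0.18), with no filter beyond 1 count (-0.11, adjusted p = 0.020) and with DESeq2 (-0.13, adjusted p = 0.049). Per length, ATP5MC2 made up 23.7% ± 0.593 of the summed FPKM of the 3 genes in NC and 33.3% ± 0.343 in siFSCN1 (SD, n = 3). In exchange the share of ATP5MC3 went from 43.7% ± 1.11 to 37.9% ± 0.493 and that of ATP5MC1 from 32.6% ± 0.545 to 28.7% ± 0.363.

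**Figure D4:**
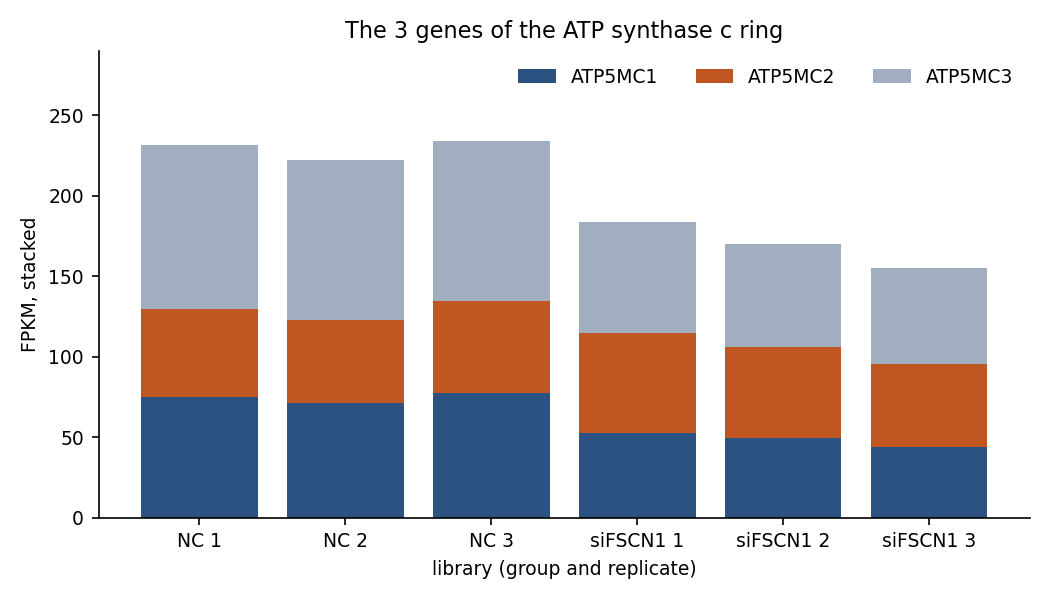
Stacked FPKM of the 3 c-ring genes in each of the 6 libraries. The ATP5MC2 part stayed between 51.18 and 61.95 FPKM in all libraries, while ATP5MC1 and ATP5MC3 were lower in every siFSCN1 library than in any NC library.

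Among the remaining genes of complex V, ATP5PD of the peripheral stalk fell by 0.70 and ATP5MK, a small membrane subunit, by 0.58 on the log2 scale. ATP5IF1, the inhibitor that blocks the reverse reaction of the ATP synthase, had 67.2, 67.9 and 68.1 CPM in NC and 58.7, 58.5 and 55.7 CPM in siFSCN1 (log2 fold change -0.23, adjusted p = 0.00024), which was -0.047 and not called with library totals. ATP5MG, a membrane subunit at the base of the peripheral stalk, had 32.0, 32.0 and 36.2 CPM in NC and 31.6, 34.7 and 32.3 CPM in siFSCN1 (log2 fold change -0.026, adjusted p = 0.71). Its sign turned without NC replicate 3 (0.031), so no direction can be given.

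NDUFA4L2, a relative of NDUFA4 known to be induced in hypoxia, was the one member that rose at least 2-fold. It was scarce, with 23, 9 and 16 counts in NC and 63, 71 and 59 counts in siFSCN1. These were 0.796, 0.342 and 0.467 CPM against 1.83, 2.16 and 1.74 CPM, a log2 fold change of 1.82 (SE 0.279, adjusted p = 1.4e-05). The groups did not overlap, but genes under 1 FPKM had a median log2 fold change of 0.40 as a class. Its exons overlap those of SHMT2 on the opposite strand, and the part of that gene in these counts was not tested.

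Levels per length spanned a wide range. COX8A had the highest mean over the 6 libraries, 521 FPKM, followed by ATP5F1B with 449 FPKM and NDUFA1 with 335 FPKM. In all, 17 members exceeded 100 FPKM and 6 stayed below 1 FPKM. Within the silenced group the members also moved together from library to library. siFSCN1 replicate 1 had the highest CPM of the 3 silenced libraries in 68 of the 84 tested members (81.0%), against 35.8% of all genes tested. siFSCN1 replicate 3 had the lowest in 74 (88.1%), for which no share over all genes was computed. Neither share was set beside genes of like abundance. Among glycolysis genes, GAPDH and PKM followed the same order, while PFKP followed the reverse. siFSCN1 replicate 1 also held the most FSCN1 of the 3, at 4.46 FPKM, and whether this bears on the members was not tested. Leaving out siFSCN1 replicate 1 gave 75 members lower and a median of -0.41, and leaving out siFSCN1 replicate 3 gave 72 lower and a median of -0.34.

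The 13 subunits encoded by mitochondrial DNA moved opposite to their nuclear partners. Of these 12 were higher and 1 was not called, with a median log2 fold change of 0.38, and the median ranged from 0.31 to 0.74 over the alternatives. MT-ND6 rose the most, by 0.69, and MT-ND5, also of complex I, by 0.60, while MT-CO2, of complex IV, had a value of -0.029 and was not called. As summed CPM the mitochondrially encoded part was 137% of the NC mean in complex I, 132% in complex III, 118% in complex IV and 119% in complex V. Mitochondrial subunits took 8.61%, 8.91% and 9.29% of all counts in NC and 12.8%, 12.7% and 12.6% in siFSCN1. Nuclear members took 1.53%, 1.49% and 1.52% against 1.28%, 1.26% and 1.19%. The ratio of mitochondrial to nuclear counts, in which scaling cancels, was thus 5.92 ± 0.257 in NC and 10.2 ± 0.296 in siFSCN1 (SD, n = 3). These groups did not overlap, and the exact two-sided permutation p of 0.1 is the smallest that 3 against 3 libraries can give. The libraries were made from polyadenylated RNA, and how far each mitochondrial value depends on the tail of its transcript was not tested.

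**Figure D5:**
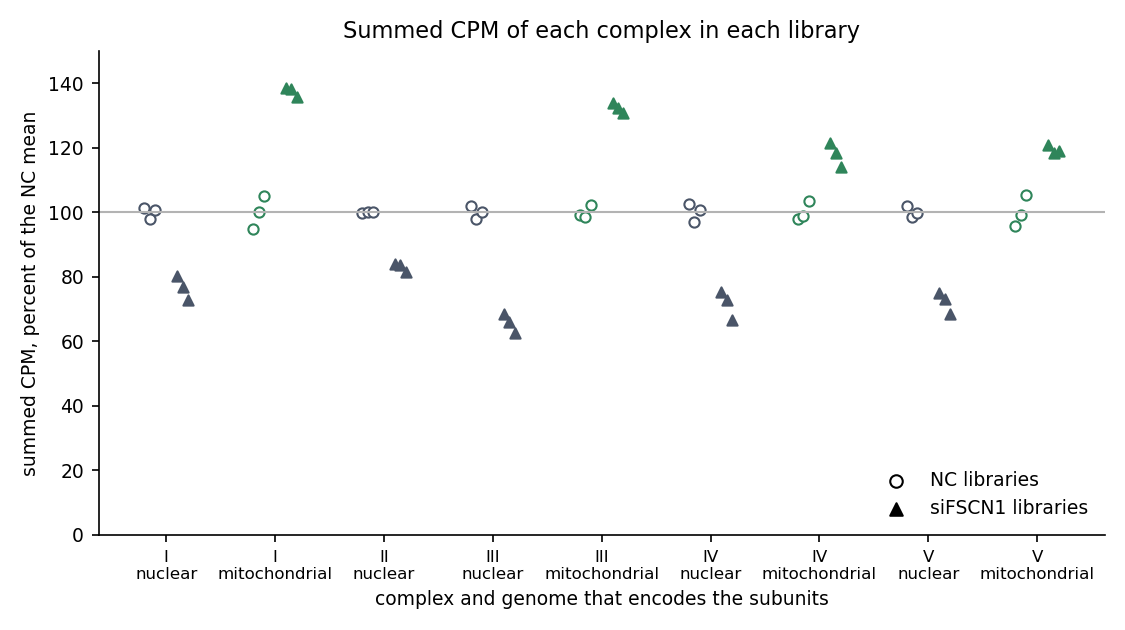
Summed CPM of the nuclear (grey) and mitochondrially encoded (green) subunits of each complex in each library, as a percent of the NC mean. Circles are NC and triangles siFSCN1 libraries. In siFSCN1 every nuclear sum was below and every mitochondrial sum above all NC libraries.

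Genes that build or regulate the complexes were counted from lists of known factors. Of 14 assembly factors of complex I, 9 were lower and 1 higher, from TMEM126B (-0.93) to NUBPL (0.88), which delivers iron-sulfur clusters. Of 22 factors of complex IV, 17 were lower and 3 higher, from COA3 (-1.17), which acts with the newly made core subunit COX1, to PET117 (0.60). For complex II 2 of 4 were lower, with SDHAF1 at -0.41 and SDHAF4 at 0.20 (not called). For complex III 3 of 6 were lower and 3 higher, from UQCC3 (-0.46) to LYRM7 (0.58), and for complex V TMEM70 was lower (-0.52) and ATPAF1 and ATPAF2 higher (0.46 and 0.26). With library totals the counts were 7 lower and 4 higher for complex I, 13 and 4 for complex IV, 1 and 2 for complex II, 2 and 3 for complex III, and 1 and 2 for complex V.

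Of 13 nuclear regulators, 7 were lower and 2 higher, with a median log2 fold change of -0.19. With library totals 5 were lower and 3 higher, with a median of -0.0021. TFAM, which packages and transcribes mitochondrial DNA, fell most (-0.84, adjusted p = 8.5e-11), and NRF1, an activator of many respiratory genes, was lower as well (-0.61, adjusted p = 2.7e-05). PPARGC1A, the coactivator PGC-1 alpha, rose the most (0.71, adjusted p = 2.2e-05). Of 16 genes of pyruvate dehydrogenase and the TCA cycle, 13 were lower and 3 not called, with a median of -0.20, led by OGDH (-0.86). With library totals that list had 7 lower, 3 higher and a median of -0.016, and its median was -0.0025 once the abundance trend was subtracted. Of 15 glycolysis genes, 12 (80.0%) were lower in RNA and 1 higher, with a median of -0.74. They ran from PFKP (-1.10) to PFKL (0.64), both forms of phosphofructokinase. The summed CPM of the glycolysis list was 61.2% of the NC mean. The median level of these genes was 103 FPKM, in the class where 81.9% of all genes were called lower, and their median was -0.50 once the abundance trend was subtracted.

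The members share features that the rule did not use. Their median exonic length was 2662 bases against 4601 bases over all genes tested. Across the 84 members the log2 fold change had a Spearman rho of 0.35 with length and -0.12 with mean CPM, as a description over genes measured in the same libraries. Over all genes tested, rho was 0.091 with length (17043 genes) and -0.31 with mean CPM (17076 genes). How strand was treated in counting is not given in the sources used here, so that reads of overlapping genes may be mixed. Same-strand overlaps were annotated for 29 members, among them NDUFA9, NDUFV1, SDHA, SDHD, COX6A1, COX8A, ATP5MC2, ATP5MC3 and ATP5MG. The part of the overlapping genes in their counts was not tested. Of the 89 members, 41 have no annotated exon that overlaps another gene. The 38 of these that were tested gave 34 lower, 2 higher and a median of -0.43, and 3 of them fell at least 2-fold. The 46 tested members with such an overlap had a median of -0.29. The other 5 members that fell at least 2-fold, NDUFC1, UQCRQ, NDUFA2, NDUFB6 and COX4I1, are among these 46. Many members have named pseudogenes. The 28 pseudogenes in the table whose symbols match the rule held 0.0529% to 0.0721% as many counts as the members themselves. Because only uniquely mapped reads were kept, this count cannot show how many reads members and pseudogenes had in common.

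Matches to the siRNA were also counted. The 7 bases CTCTGGA, the complement of its guide strand from position 2 to 8, occur in the longest annotated 3′ UTR of 12 of the 84 tested members (14.3%), against 22.6% of 13486 protein-coding genes tested. These UTRs had a median of 644.5 bases in the members and 1810 bases in the protein-coding genes. The shares were not corrected for UTR length, so they cannot be compared directly. The median log2 fold change was -0.34 over members with the match and -0.38 over those without it. Over all the protein-coding genes it was -0.092 with the match and -0.0036 without it. Of the members that fell at least 2-fold, ATP5F1D and UQCRQ had 1 match each. NDUFC1, NDUFA2, NDUFB6, UQCRC1, COX4I1 and NDUFS5 had none.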

How the data were processed

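Polyadenylated RNA of 3 NC and 3 siFSCN1 libraries of A549 cells was compared, with groups taken from the sample titles. The authors trimmed the reads with the FASTX Toolkit, aligned them to GRCh38 with HISAT2 (the submitters' processing notes name TopHat2) and kept uniquely mapped reads. They deposited raw counts per gene and FPKM, fragments per kilobase and 1000000 mapped fragments. Which program counted the reads, with which strand option and gene annotation, is not given in the sources used here, and the labels and the methods name different stranded kits.

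Genes were kept with filterByExpr (17076 of 30230), scaled by TMM and compared by the quasi-likelihood test of edgeR 4.0.16 in R 4.3.3, with no other term in the model. The Benjamini-Hochberg adjustment covered all genes tested, and SE was derived from the fit. The authors had used DESeq2, which was run as an alternative (1.42.0), as were limma 3.58.1 on log2(FPKM + 0.1) and log2(FPKM + 1), other scalings, other filters (one required a mean of 10 counts and 1 CPM), the replicate number as a block, each library left out and a lowess fit (span 0.3) of fold change on abundance. Per-library values after TMM are given as CPM, and the lowess fit took log CPM as abundance. The edgeR fit was tested on simulated data in which few genes changed, with rises and falls balanced. Such data cannot test the scaling where most genes were called, as here. Total counts of 27967301 to 36560919 and a common biological coefficient of variation of 5.94% set the precision.

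The members and gene lists were chosen with earlier results of these data known. The genes named were all members with a called change of at least 2-fold, the largest fall and rise in each complex, SDHA to SDHD, CYCS, ATP5IF1, the c-ring genes, NDUFA4 beside COX4I1, the tissue isoforms with their partners, and the extremes of each list, of which 1 is not reported here. Other members were named after their values were seen. CYCS, NDUFA4L2 and 2 read-through genes were counted in no complex, NDUFA4L2 after the table had been seen. COX6A2, COX7A1 and COX7B2 were not analysed here. Positions, overlaps and 3′ UTRs of at least 50 bases came from GENCODE 44, in which all 89 identifiers were found, and promoters from RefSeq.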

Additional observations from a re-analysis of the deposited data

How the results depend on the processing

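The count of members lower was 73 with RLE scaling and with the replicate block, and between 71 and 75 when single libraries were left out, with 3 higher and 8 lower at least 2-fold throughout those fits. Same-numbered libraries had correlations of deviations of -0.035, 0.040 and -0.084, so the numbers do not pair them, and the block changed no call of a named gene. Scalings that shift all genes moved most values. The median of all genes was 0.031 with TMM, 0.15 with upper quartile scaling and 0.22 with library totals, and members lower were 61 and 50 with the latter 2. Members higher were 5 with upper quartile scaling, 11 with library totals and 5 with each FPKM fit, members lower at least 2-fold were 4 with library totals and each FPKM fit, and 0 were higher at least 2-fold on log2(FPKM + 1), which understates changes of scarce genes. For all members and complexes I, II, III, IV and V in turn, medians were -0.25, -0.23, -0.16, -0.34, -0.30 and -0.19 with upper quartile scaling, -0.18, -0.17, -0.091, -0.27, -0.23 and -0.12 with library totals, -0.20, -0.19, -0.11, -0.29, -0.25 and -0.14 on log2(FPKM + 0.1), -0.20, -0.17, -0.11, -0.25, -0.25 and -0.14 on log2(FPKM + 1), and -0.14, -0.14, -0.088, -0.29, -0.13 and -0.076 with the abundance trend removed. The median of complex II was also -0.25 with the stricter filter and -0.31 with DESeq2. With single libraries left out the medians ran from -0.41 to -0.34 for all members, -0.40 to -0.33 for complex I, -0.31 to -0.27 for complex II, -0.54 to -0.41 for complex III, -0.48 to -0.36 for complex IV and -0.36 to -0.28 for complex V. The FSCN1 value was -3.68 with the trend removed.

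Of the 84 tested members, 17 changed sign under at least 1 alternative, 10 of them called in the report, NDUFB9 (-0.25) being the lowest. Among them ATP5F1E reached 0.15, NDUFV1 0.25 and NDUFA11 -0.053. With upper quartile scaling ATP5MC2 was 0.013, ATP5MG 0.092 and SDHA 0.024. With library totals ATP5MC2 was 0.081, ATP5MG 0.16, COX6A1 0.019, SDHA 0.094 and UQCR10 0.016. On log2(FPKM + 0.1) ATP5MC2 was 0.059, ATP5MG 0.14 and SDHA 0.073, and on log2(FPKM + 1) 0.058, 0.13 and 0.069. ATP5MG was 0.0025 with the stricter filter and ran from -0.074 to 0.031 with single libraries left out. With the trend removed ATP5MC2 was 0.17, COX6A1 0.13, NDUFA4 0.073, SDHA 0.15 and UQCR10 0.045. The cause of these shifts between fits of the same libraries was not tested, other than that a shared scaling factor moves all genes alike. Few counts limited the 5 members that were not tested, NDUFA4L2 (SE 0.279), UQCRHL (SE 0.136) and NDUFA11 (SE 0.129).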
